A study of Homo sapiens with 12 samples.

Results

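Interleukin-1 (IL-1) family ligands, their receptors and the IRAK kinases were examined as a set of 10 genes chosen by name: the ligands IL1A, IL1B and IL33, the receptor antagonist IL1RN, the receptor chains IL1R1, IL1RAP and IL1RL1, and the kinases IRAK1, IRAK2 and IRAK3. All 10 were among the 57500 genes of the count table, each as a single row, and 9 of them passed the filter on low counts. IL1RN did not pass and was not tested.

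RNA was sequenced from MRC5 cells, which are human embryonic lung fibroblasts, in 12 libraries of 4 groups. Proliferating cells (Prol) received neither radiation nor inhibitor. The Sen(IR) group was made senescent with 20 Gy of X-rays, and the methods give collection between day 10 and day 12 afterwards. The Sen(IR)+UK5099 group was irradiated in the same way and kept from day 1 in 100 µM UK5099, an inhibitor of the mitochondrial pyruvate carrier. The Sen(IR)+CTPI2 group was irradiated and kept from day 1 in CTPI2, an inhibitor of the mitochondrial citrate carrier SLC25A1. The methods list 15 and 30 µM of CTPI2 for cells and do not say which was sequenced. Each group had 3 libraries. The study's figure legends call the RNA-seq replicates independent experiments or conditions, while the labels do not say whether the libraries came from separate cultures. The p-values measure the spread between these libraries. No group of proliferating cells received an inhibitor, and all groups came from one cell line.

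IL-1 is among the best known signals that cells of the lung stroma answer with inflammatory gene expression. IL-1α, made from IL1A, and IL-1β, made from IL1B, bind IL1R1, which then recruits the shared accessory chain IL1RAP. IL-33 uses the same accessory chain but binds its own receptor, ST2, the product of IL1RL1. The receptor complexes recruit MYD88 and the IRAK kinases and lead to NF-κB and AP-1. IRAK1 and IRAK2 carry the signal onward, whereas IRAK3 (IRAK-M) is mainly known as a brake on it. In senescent fibroblasts, IL-1α and IL-1β are well known members of the senescence-associated secretory phenotype (SASP).

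Library totals ran from 20597736 to 28245693 counts. Levels are given as CPM, counts per 1000000 counts of the TMM-scaled library, and a floor of 3 counts equals 0.111 to 0.147 CPM depending on the library. The 10 fibroblast markers summed to between 9475 and 10157 CPM in the Sen(IR)+UK5099 libraries. In the other 9 libraries the sum lay between 16964 and 23609 CPM. Group means of these markers were lower with UK5099 than in Sen(IR), except for LUM (370 against 357 CPM) and PDGFRB (162 against 156 CPM). COL1A1 stood at 1601 against 4714 CPM and VIM at 2780 against 3063 CPM. The part of these differences in the results was not tested. Leukocyte markers never exceeded 10 counts for a gene in any library. Of 6 mast cell markers, 5 had at most 3 counts in a library, the exception being KIT at 25.1 to 34.9 CPM in group means. Among endothelial markers TEK stood at 172 to 360 CPM, KDR at 0.274 to 4.21 CPM and VWF at 0.315 to 0.865 CPM in group means, whereas PECAM1 and CDH5 had at most 8 and 5 counts. Epithelial markers summed to at most 1.34 CPM. Differences were tested with edgeR's quasi-likelihood test in one fit of all 12 libraries, with p-values adjusted over all genes by Benjamini-Hochberg. Calls needed an adjusted p under 0.05 and a log2 fold change beyond 0.5 in either direction. In bulk RNA, fewer cells expressing a gene and less RNA per cell cannot be told apart. Both inhibitor comparisons share the Sen(IR) libraries.

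IL1A, IL1B and IRAK2 carried much of the pattern described below, so the promoter windows of these 3 genes are shown first. Each runs from 250 bases before to 50 bases after a RefSeq transcript start (GRCh38.p14), 5′ to 3′ on the strand of the gene. They are chr2:112784444-112784743 on the minus strand for IL1A (one of its 2 windows), chr2:112836730-112837029 on the minus strand for IL1B, and chr3:10164669-10164968 on the plus strand for IRAK2. Capitals mark TGANTCA, the AP-1 type motif, in IL1A and TTGCNNAA, the C/EBP type motif, in IL1B. The window of IRAK2 is shown because it holds neither.
IL1A: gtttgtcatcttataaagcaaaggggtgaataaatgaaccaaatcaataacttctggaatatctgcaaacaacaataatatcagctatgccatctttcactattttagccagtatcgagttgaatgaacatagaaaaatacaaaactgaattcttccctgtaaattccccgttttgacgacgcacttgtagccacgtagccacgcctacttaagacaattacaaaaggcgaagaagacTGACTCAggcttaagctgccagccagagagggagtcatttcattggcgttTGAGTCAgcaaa
IL1B: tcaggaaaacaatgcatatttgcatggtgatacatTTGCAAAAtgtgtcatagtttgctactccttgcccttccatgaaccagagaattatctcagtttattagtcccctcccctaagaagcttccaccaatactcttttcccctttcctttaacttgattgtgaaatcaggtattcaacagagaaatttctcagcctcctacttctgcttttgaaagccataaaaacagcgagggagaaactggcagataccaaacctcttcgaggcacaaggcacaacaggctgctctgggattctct
IRAK2: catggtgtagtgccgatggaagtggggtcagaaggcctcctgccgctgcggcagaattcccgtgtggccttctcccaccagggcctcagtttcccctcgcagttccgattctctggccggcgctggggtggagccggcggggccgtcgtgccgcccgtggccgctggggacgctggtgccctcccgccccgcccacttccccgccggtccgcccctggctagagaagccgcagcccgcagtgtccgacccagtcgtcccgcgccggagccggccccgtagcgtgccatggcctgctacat

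Motifs of 3 types were searched on both strands of the 34943 distinct windows of the table. TGANTCA was present in 7.72% of them, TTGCNNAA in 10.5% and GGNNTTTCC, the κB type, in 6.25%. In the printed window of IL1A, TGANTCA lay 12 bases before and 39 bases after the start, and in that of IL1B, TTGCNNAA lay 215 bases before it. In the other window of IL1A the same TGANTCA matches lay 105 and 55 bases before its start. TGANTCA also lay 1 base before a start of IRAK1, 191 before one of IL1RL1 and 223 before one of IL1RN. TTGCNNAA also lay 35 bases after a start of IL1R1. None of the 3 motifs was found in the windows of IRAK2, IRAK3, IL33 or IL1RAP. GGNNTTTCC was found among the 10 genes in IL1RN alone, in 2 of its 3 windows, which overlap. No match overlapped a match of another type. The windows also differed in base composition, with a GC content of 39.7% for IL1A, 42.3% for IL1B and 72% for IRAK2, against a median of 58.7% over all windows. A match is a run of letters and was not tested as a binding site.

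Counted over the members, 6 were called higher and 1 lower in Sen(IR) than in Prol, when 24.8% and 22.4% of all 16251 genes tested were called higher and lower. With UK5099 against Sen(IR) none was called higher and 6 were called lower, beside 8.76% and 12.1% of all genes. With CTPI2 against Sen(IR) the member counts were 0 and 1, beside 0.0185% and 0.148%. For UK5099 against CTPI2 they were 0 and 6 (8.20% and 11.7% of all genes), for UK5099 against Prol 2 and 4 (26.9% and 26.2%), and for CTPI2 against Prol 6 and 1 (24.8% and 21.9%). The median log2 fold change of the 9 tested members was 0.98 in Sen(IR) against Prol, −1.44 in Sen(IR)+UK5099 against Sen(IR) and −0.24 in Sen(IR)+CTPI2 against Sen(IR), when the medians over all genes were 0.01, 0.01 and 0.00. Because IL1A, IL1B and IL33 passed the filter through Sen(IR) and Sen(IR)+CTPI2, and IL1RL1 through every group but Sen(IR)+UK5099, these counts and medians describe the members and are not evidence about them.

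Senescence was accompanied by higher RNA of the 3 ligands that could be tested. IL1A (ENSG00000115008, chr2:112773925-112784493, minus strand) had 4, 3 and 4 counts in the Prol libraries and 95, 93 and 57 counts in the Sen(IR) libraries. These correspond to 0.149 ± 0.021 CPM and 3.81 ± 0.88 CPM (SD, n = 3), and the groups did not overlap. The difference was 4.63 on the log2 scale (SE 0.42, edgeR adjusted p = 1.89e-09). IL1B (ENSG00000125538, chr2:112829751-112836816, minus strand), the neighbour of IL1A, had 11, 5 and 12 counts in Prol and 304, 271 and 301 in Sen(IR). Its level went from 0.377 ± 0.141 to 13.7 ± 1.0 CPM, again without overlap, a log2 difference of 5.15 (SE 0.22, edgeR adjusted p = 2.47e-15).

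IL33 (ENSG00000137033, chr9:6215786-6257983), which encodes a nuclear cytokine released by damaged cells, was low in every group. It had 2, 0 and 0 counts in Prol and 31, 16 and 19 in Sen(IR), where its level was 1.02 ± 0.32 CPM. Pooled over libraries, 66 counts against 2 gave a ratio of 38.0, with an exact 95% interval of 10.1 to 320 that covers counting error only. It was called higher in Sen(IR) by edgeR (log2 fold change 4.99, SE 0.83, adjusted p = 1.39e-05). Both Prol counts came from replicate 1, and without that library the fitted value was 7.62, against a group with no count. IL1A, IL1B and IL33 passed the filter through the Sen(IR) and Sen(IR)+CTPI2 libraries, so that they were bound to differ between some groups.

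IL1RN (ENSG00000136689, chr2:113099315-113134016), which encodes the natural antagonist of IL1R1, had 3 counts in Sen(IR) replicate 3, 1 count in Sen(IR)+UK5099 replicate 1, 1 in Sen(IR)+CTPI2 replicate 1 and 0 in the other 9 libraries. No library exceeded the floor of 3 counts, so no fold is given. The antagonist was therefore not detectable above this limit in libraries that held up to 304 counts of IL1B and 95 of IL1A.

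**Figure D1:**
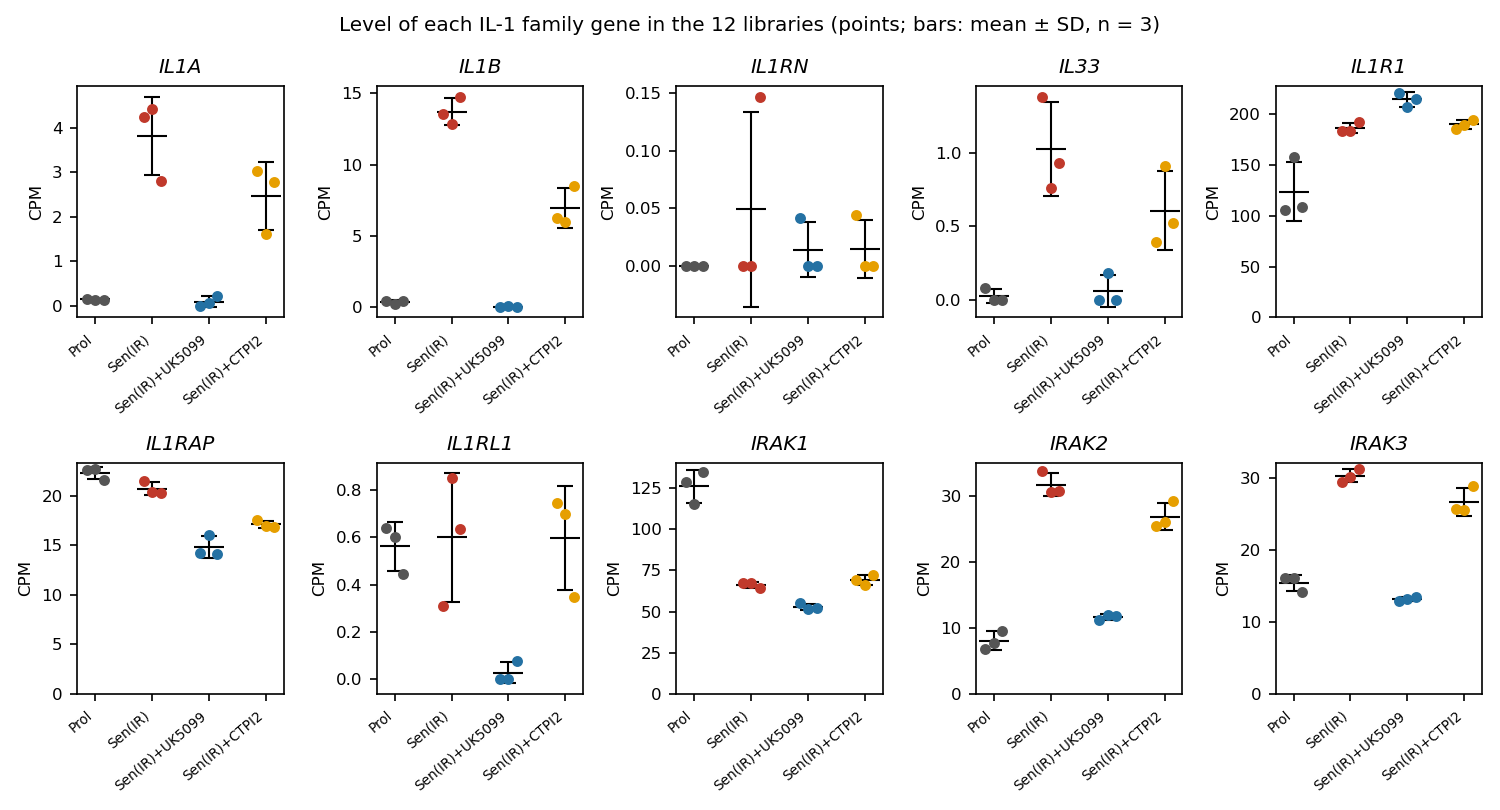
Level in CPM (linear axis, its range set per gene) of each of the 10 genes in the 12 libraries, by group. Points are libraries and bars the mean ± SD of 3. IL1A, IL1B, IRAK2 and IRAK3 were high in Sen(IR) and Sen(IR)+CTPI2 and low in Prol and Sen(IR)+UK5099, while IL1R1 was highest with UK5099 and IRAK1 in Prol.

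With UK5099 all 3 ligands fell. IL1A had 0, 2 and 6 counts in the Sen(IR)+UK5099 libraries, or 0.102 ± 0.119 CPM. The fitted log2 difference from Sen(IR) was −5.13 (SE 0.45, edgeR adjusted p = 3.22e-09), and the pooled ratio of Sen(IR) to Sen(IR)+UK5099 was 36.8 (counting interval 18.4 to 86.3). Replicate 3 held 6 of the 8 counts, and without it the fitted value was −6.43. IL1B was left with 1, 2 and 1 counts, a pooled 4 against 876 in Sen(IR). That ratio was 263 with a counting interval of 102 to 969, and the fitted log2 fold change was −7.90 (SE 0.30, edgeR adjusted p = 1.64e-15), the largest absolute value among the 9 tested members in this comparison.

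IL33 had counts in Sen(IR)+UK5099 replicate 2 alone, 5 in number. It was called lower than in Sen(IR) (log2 fold change −3.88, SE 0.70, edgeR adjusted p = 9.98e-05), with a pooled ratio of 15.9 (6.47 to 50.5) in favour of Sen(IR). Without replicate 2 the fitted value was −7.60, against a group with no count.

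IL1B was also lower with UK5099 than in cells that had never been irradiated. Its 4 pooled counts stood against 28 in Prol, a log2 fold change of −2.75 (SE 0.61, edgeR adjusted p = 3.67e-04) with no overlap between the groups. IL1A and IL33 were not called in that comparison, with log2 fold changes of −0.50 (95% interval from the SE −2.06 to 1.06) and 1.11 (−1.52 to 3.74). Their counts were too few to place Sen(IR)+UK5099 above or below Prol, and both values changed sign when one Sen(IR)+UK5099 library was left out: IL1A to 0.0220 without replicate 1 and IL33 to −2.61 without replicate 2.

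With CTPI2, IL1B fell to a level between Prol and Sen(IR), while IL1A and IL33 were not called different from Sen(IR). IL1B had 143, 145 and 197 counts with CTPI2, or 6.93 ± 1.39 CPM, below every Sen(IR) library. It fell by 0.98 on the log2 scale relative to Sen(IR) (SE 0.14, edgeR adjusted p = 4.25e-04), to 0.505 of the Sen(IR) level. IL1B was the one member called in this comparison, and its adjusted p stayed between 8.41e-10 and 0.0109 over the alternatives tried, although −0.98 falls short of a log2 limit of 1.

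IL1A had 69, 39 and 64 counts with CTPI2 (2.47 ± 0.75 CPM), which overlapped Sen(IR), and its log2 fold change of −0.63 did not pass (95% interval −1.17 to −0.10, edgeR adjusted p = 0.611). IL33 had 9, 22 and 12 counts (0.607 ± 0.268 CPM) and likewise overlapped Sen(IR), with a log2 fold change of −0.75 (−1.70 to 0.21, adjusted p = 0.830). Against Prol, all 3 ligands remained called higher with CTPI2, by 3.996 for IL1A, 4.17 for IL1B and 4.25 for IL33 on the log2 scale. Without Prol replicate 1 the fitted value for IL33 was 6.87, against a Prol group with no count. The groups ordered from high to low were therefore Sen(IR), Sen(IR)+CTPI2, Prol and Sen(IR)+UK5099 for IL1B, with every neighbouring pair called different. For IL1A the order was the same, but neither Sen(IR) and Sen(IR)+CTPI2 nor Prol and Sen(IR)+UK5099 differed beyond the threshold.

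Receptor RNA differed less between groups than that of the ligands, except for IL1RL1 with UK5099. IL1R1 (ENSG00000115594, chr2:102064544-102179874), the signalling receptor for both forms of IL-1, had 105, 158 and 109 CPM in Prol and 183, 183 and 192 CPM in Sen(IR). The groups did not overlap, although Prol replicate 2 stood well above the other Prol libraries. IL1R1 was called higher in Sen(IR), by 0.59 on the log2 scale (SE 0.095, edgeR adjusted p = 9.76e-06). Without Prol replicate 1 this was 0.49, under the fold limit.

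With UK5099, IL1R1 reached 221, 207 and 215 CPM. All 3 libraries lay above every Sen(IR) library, yet the log2 difference of 0.20 did not pass (95% interval 0.02 to 0.39, edgeR adjusted p = 0.0803). It was 0.79 above Prol (adjusted p = 1.10e-07). With CTPI2 it was 186, 190 and 194 CPM, overlapping Sen(IR), a log2 difference of 0.03 (−0.15 to 0.21), and was called higher than in Prol at 0.62 (adjusted p = 5.05e-06). IL1R1 had its highest mean, 215 ± 7 CPM, with UK5099, where IL1B had its lowest. Over the 12 libraries the Pearson r of log2 CPM between IL1R1 and IL1B was 0.06.

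IL1RAP (ENSG00000196083, chr3:190514051-190659750), the accessory chain, had its highest level in Prol. It had 22.3 ± 0.6 CPM in Prol, 20.7 ± 0.6 in Sen(IR), 17.1 ± 0.4 with CTPI2 and 14.8 ± 1.1 with UK5099. The step from Prol to Sen(IR) was −0.11 on the log2 scale (−0.26 to 0.04, edgeR adjusted p = 0.223) and changed sign to 0.0149 under upper-quartile scaling. UK5099 libraries lay below every Sen(IR) library with a log2 fold change of −0.48 (SE 0.078, edgeR adjusted p = 2.73e-05), which is just inside the fold limit of 0.5. Without Sen(IR)+UK5099 replicate 2 it was −0.55 and was called. Against Prol, IL1RAP was called lower with UK5099 (−0.59, adjusted p = 4.52e-07), a call lost under upper-quartile scaling (−0.45), and CTPI2 libraries also lay below Prol (−0.38, adjusted p = 1.50e-04) without reaching the fold limit.

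IL1RL1 (ENSG00000115602, chr2:102311502-102352037), which encodes the IL-33 receptor ST2, was near the limit of detection. It had 15, 14 and 12 counts in Prol, 7, 18 and 13 in Sen(IR), 17, 17 and 8 with CTPI2 and 0, 0 and 2 with UK5099. The first 3 groups overlapped, and the log2 differences among them were 0.09 (−0.81 to 1.00) for Sen(IR) against Prol and 0.00 (−0.89 to 0.90) for Sen(IR)+CTPI2 against Sen(IR), intervals wide enough to include a 1.5-fold change either way. UK5099 lay below all of them. Against Sen(IR) the pooled 2 counts stood against 38, a ratio of 22.8 in favour of Sen(IR) (counting interval 5.91 to 196), and edgeR called it lower (log2 fold change −4.27, SE 0.79, adjusted p = 1.19e-04). Both counts came from replicate 3, without which the fitted value was −6.82. Against Prol the log2 fold change was −4.17 with UK5099 (adjusted p = 5.64e-05), or −6.73 without replicate 3, and 0.10 with CTPI2 (−0.79 to 0.99). IL1RL1 passed the filter through the other 3 groups, which limits what its UK5099 calls show.

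A share of 1.65% of the exon bases of IL1RL1 is shared with IL18R1 on the same strand, so reads there cannot be assigned to either. IL18R1, which encodes the IL-18 receptor chain, fell from 5.25 ± 0.74 CPM in Prol to 1.42 ± 0.27 in Sen(IR) and to 0.244 ± 0.104 with UK5099. The part of the overlap in the counts of IL1RL1 was not tested.

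**Figure D2:**
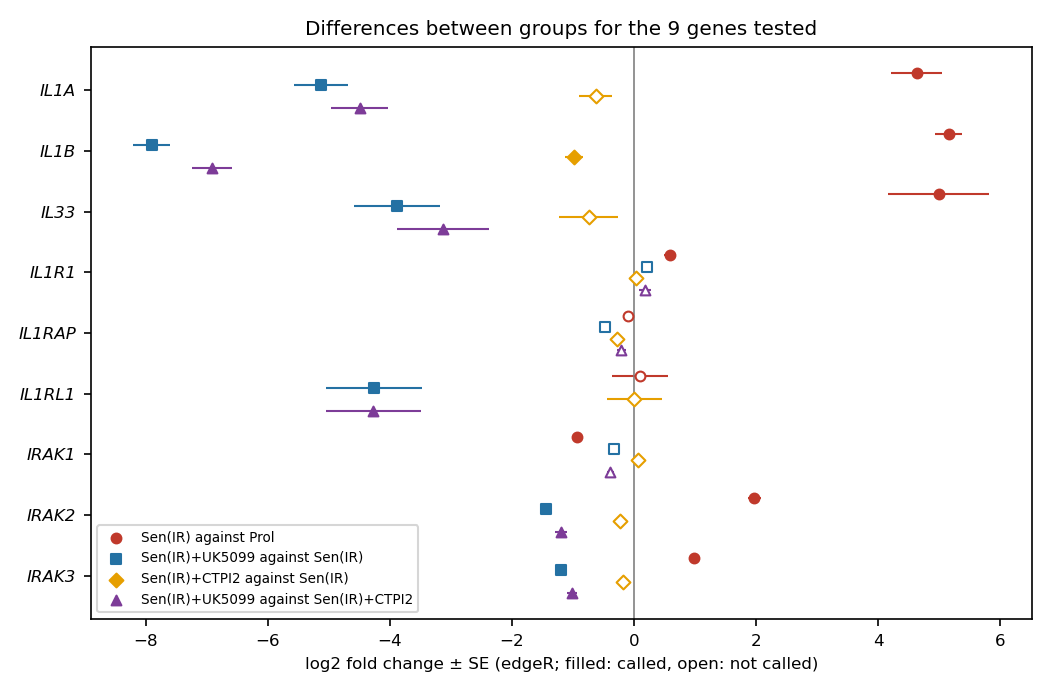
Log2 fold change ± SE from edgeR for the 9 genes tested, in 4 comparisons; filled symbols are called and open symbols are not. The ligands and IL1RL1 lie far to the left in both UK5099 comparisons, IRAK2 and IRAK3 lie at −1.44 and −1.20 against Sen(IR), and of the CTPI2 values only IL1B is filled.

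Among the kinases, IRAK1 and IRAK2 went in opposite directions in senescence. IRAK1 (ENSG00000184216, chrX:154010506-154019902, minus strand) had 129, 115 and 135 CPM in Prol and 67.1, 67.1 and 64.2 CPM in Sen(IR). It was lower in every Sen(IR) library, with a log2 fold change of −0.93 (SE 0.061, edgeR adjusted p = 6.01e-12). With UK5099 it was 52.8 ± 2.0 CPM, below all Sen(IR) libraries, but the log2 fold change of −0.33 (adjusted p = 1.85e-04) was inside the fold limit. With CTPI2 it was 69.1 ± 3.1 CPM and overlapped Sen(IR), with a log2 difference of 0.06. Both inhibitor groups stayed below every Prol library, at −1.26 with UK5099 (adjusted p = 2.35e-14) and −0.87 with CTPI2 (adjusted p = 1.80e-11).

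IRAK2 (ENSG00000134070, chr3:10164919-10243745) had 6.82, 7.68 and 9.59 CPM in Prol and 33.7, 30.6 and 30.7 CPM in Sen(IR). The difference was 1.97 on the log2 scale (SE 0.10, edgeR adjusted p = 8.33e-14). With UK5099 it was 11.2, 12.02 and 11.8 CPM, lower than every Sen(IR) library (log2 fold change −1.44, SE 0.097, adjusted p = 4.07e-11). It nevertheless stayed above every Prol library, by 0.53 on the log2 scale (SE 0.11, adjusted p = 1.42e-04), a call that was lost without Prol replicate 1 (0.43) or replicate 2 (0.50). With CTPI2 it was 25.3, 26.0 and 29.1 CPM, below all Sen(IR) libraries, yet the log2 fold change of −0.24 did not pass (−0.42 to −0.06, adjusted p = 0.487). It was called higher than in Prol, at 1.73 (adjusted p = 9.34e-13).

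IRAK3 (ENSG00000090376, chr12:66189195-66254622) had 16.0, 16.0 and 14.1 CPM in Prol and 29.4, 30.1 and 31.2 CPM in Sen(IR), a log2 difference of 0.98 (SE 0.078, edgeR adjusted p = 2.10e-10). UK5099 brought it to 12.9, 13.2 and 13.4 CPM, a log2 difference of −1.20 from Sen(IR) (SE 0.079, adjusted p = 3.19e-11). These values lay below every Prol library too, but that log2 difference of −0.22 was inside the fold limit (adjusted p = 0.0201). With CTPI2 the level was 25.6, 25.5 and 28.8 CPM, again below all Sen(IR) libraries with a log2 fold change that did not pass (−0.18, −0.33 to −0.04, adjusted p = 0.568), and above Prol by 0.79 (adjusted p = 7.11e-09). A share of 3.3% of its exon bases is shared with other annotated genes.

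The inhibitors were also compared directly. IL1A, IL1B, IL33, IL1RL1, IRAK2 and IRAK3 were lower with UK5099 than with CTPI2, with log2 fold changes of −4.50, −6.92, −3.14, −4.27, −1.20 and −1.01. IL1A, IL1B, IL33 and IL1RL1 passed the filter through groups other than Sen(IR)+UK5099, which limits what their values here show. Without Sen(IR)+UK5099 replicate 2 the value for IL33 was −6.85, and without replicate 3 those for IL1A and IL1RL1 were −5.80 and −6.83. IL1R1 was 0.18 higher with UK5099 (−0.01 to 0.36, edgeR adjusted p = 0.135), and IL1RAP and IRAK1 had values inside the fold limit, −0.21 (adjusted p = 0.0356) and −0.39 (adjusted p = 2.59e-05). The inhibitors were used at different doses, so these values describe the sequenced conditions and do not rank the compounds.

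Levels can be compared between genes only per length, here as CPM per kilobase of annotated exon. On that scale IRAK1 was the highest member in Prol at 29.6 ± 2.4, followed by IL1R1 at 17.4 ± 4.1. In the other 3 groups IL1R1 came first, at 26.1 ± 0.7 in Sen(IR), 30.1 ± 1.0 with UK5099 and 26.7 ± 0.6 with CTPI2, and IRAK1 second. IL1B rose from rank 6 in Prol, at 0.125 ± 0.047, to rank 4 in Sen(IR), at 4.56 ± 0.32, and stood above IL1A at 1.89 ± 0.44. IL33 at 0.315 ± 0.098 and IL1RL1 at 0.105 ± 0.047 were the lowest of the tested members in Sen(IR).

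**Figure D3:**
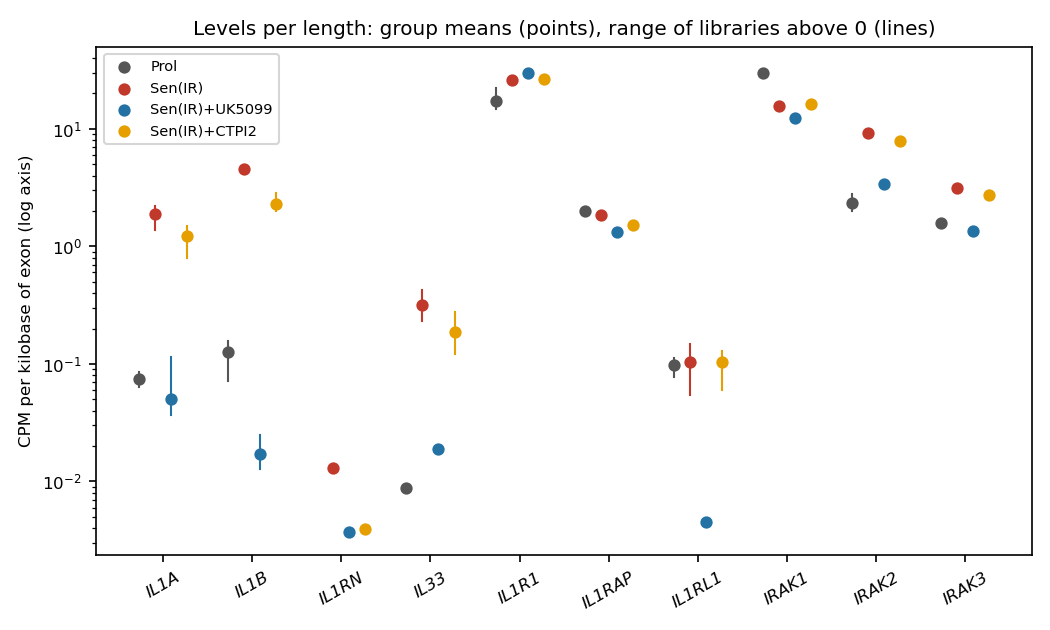
CPM per kilobase of exon on a log axis for the 10 genes by group; points are group means, lines the range of libraries above 0, and groups with no count have no point. IL1R1 and IRAK1 lie above 10 CPM per kilobase in every group, whereas IL1A and IL1B span more than one decade between groups.

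The genes on either side on chromosome 2 were read in their order. In the ligand cluster IL1A and IL1B were the only genes of the family that passed the filter. IL37, IL36G, IL36A, IL36B, IL36RN, IL1F10 and IL1RN, which follow them, never exceeded 4 counts in a library. CKAP2L, a mitotic spindle gene that lies on the other side of IL1A, fell from 91.9 CPM in Prol to 4.84 in Sen(IR) and 0.584 with UK5099. In the receptor cluster IL1R1 had 124 to 215 CPM in group means, whereas its neighbours IL1R2 and IL1RL2 stayed at or below 0.106 and 0.865 CPM.

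**Figure D4:**
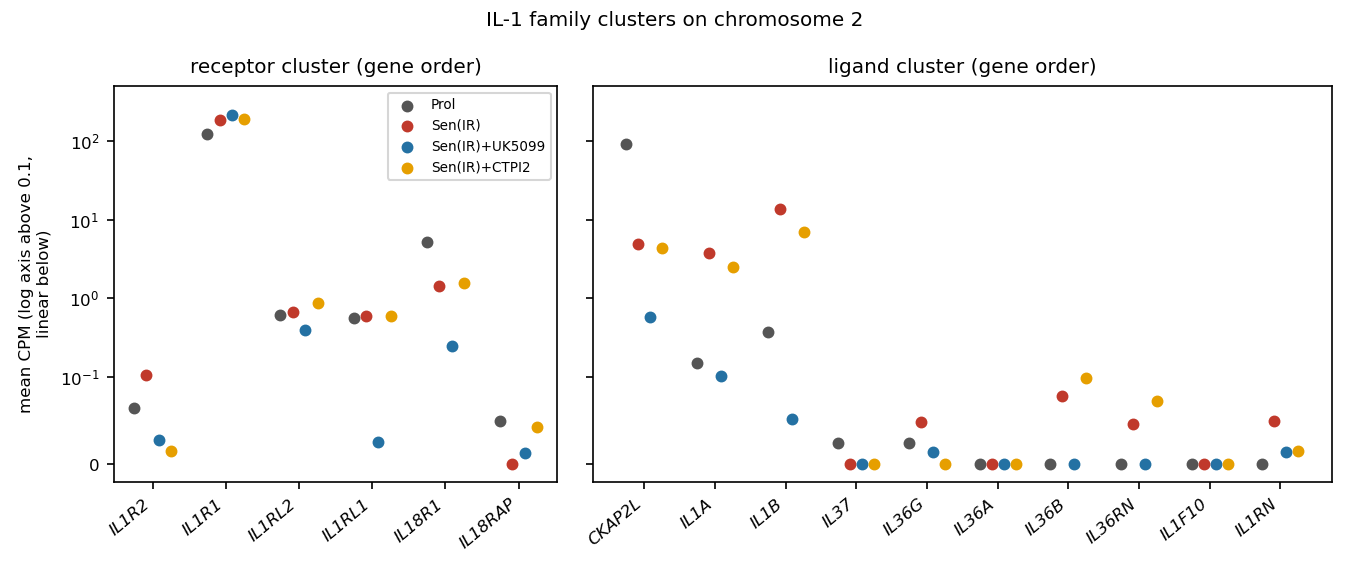
Mean CPM by group for the genes of the receptor and ligand clusters of chromosome 2 in their order on the chromosome (log axis above 0.1 CPM, linear below). Means below about 0.1 CPM rest on 5 or fewer counts in each library. IL1A and IL1B stand out from the genes that follow them, and IL1R1 from the other receptors.

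Of the other IL-1 family genes, 6 of 15 passed the filter. In Sen(IR) 1 was called higher and 1 lower than in Prol, beside 24.8% and 22.4% of all genes. With UK5099 against Sen(IR) the counts were 0 and 2, beside 8.76% and 12.1%. IL18, whose product is another cytokine activated by caspase-1, was called higher in Sen(IR) (2.07 ± 0.22 against 0.893 ± 0.064 CPM, log2 fold change 1.20, edgeR adjusted p = 2.41e-04) and lower with UK5099 (0.402 ± 0.038 CPM, −2.34, adjusted p = 6.64e-07). IL18R1 was called lower in both comparisons, at −1.88 and −2.50. With CTPI2 none of the 6 was called against Sen(IR), when only 0.0185% and 0.148% of all genes were called higher and lower. IL18 stood at 2.11 ± 0.47 CPM with CTPI2.

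The 16 genes of the Myddosome and the kinases and ubiquitin enzymes behind it all passed the filter. In Sen(IR) 2 of them were called higher and 3 lower than in Prol, smaller shares than the 24.8% and 22.4% of all genes, the largest values being −0.92 for UBE2N, a ubiquitin-conjugating enzyme, −0.79 for PELI2, a ligase of the Pellino family, and 0.78 for TAB3, an adaptor of the kinase TAK1. UK5099 raised 1 of the 16 against Sen(IR) and lowered 0, beside 8.76% and 12.1% of all genes. That gene was PELI3, at 0.58 (edgeR adjusted p = 0.00132). None was called with CTPI2 against Sen(IR), beside 0.0185% and 0.148% of all genes. MYD88, IRAK4 and TRAF6 were not called in either inhibitor comparison. Some genes of the list had an adjusted p under 0.05 with UK5099 against Sen(IR) but a value inside the fold limit. These were PELI2 (0.49), TRAF6 (0.47), TOLLIP (0.35), TAB1 (0.31) and IRAK4 (0.21), all higher with UK5099. TRAF6 went from 13.5 ± 0.3 to 18.7 ± 1.0 CPM.

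Of 12 genes for processing and release of the ligands, 10 passed. In Sen(IR) 0 were called higher and 2 lower than in Prol, beside 24.8% and 22.4% of all genes. The 2 were GSDMD, which encodes the pore protein gasdermin D (log2 fold change −0.997 against Prol), and NEK7, a partner of NLRP3 (−0.54). Under upper-quartile scaling 1 of these 2 calls was lost. With UK5099 against Sen(IR), 0 were called higher and 2 lower, beside 8.76% and 12.1% of all genes. UK5099 lowered CASP1, the protease that matures IL-1β, from 57.2 ± 1.7 to 31.0 ± 3.0 CPM (−0.88, edgeR adjusted p = 6.37e-09) and CASP4 from 131 ± 3 to 78.9 ± 1.5 CPM (−0.73, adjusted p = 2.11e-10). NLRP3 itself had at most 7 counts in any library and was not tested. None of the 10 was called with CTPI2 against Sen(IR), beside 0.0185% and 0.148% of all genes called higher and lower.

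Genes known to be induced by IL-1 in fibroblasts, and by other signals too, were read as a further list. All 21 were tested, and 20 were called higher in Sen(IR) than in Prol, beside 24.8% of all genes. CCL20, CSF2, CSF3, CXCL1 and CXCL2 were at or near 0 in Prol and Sen(IR)+UK5099. They passed the filter through the groups in which they are high and were bound to differ between some groups, so these counts describe the list. CXCL1, a neutrophil chemokine, went from 0.308 ± 0.232 to 295 ± 5 CPM and CXCL3 from 0.247 ± 0.057 to 44.9 ± 2.2 CPM. CCL20, which attracts CCR6-bearing lymphocytes, was at 0 in every Prol library and at 5.10 ± 0.02 CPM in Sen(IR). MMP1 was the gene not called, at 0.23 on the log2 scale.

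With UK5099 all 21 were called lower than in Sen(IR), beside 12.1% of all genes, with a median log2 fold change of −4.28. CXCL1 had 0.234 ± 0.034 CPM (−10.27, edgeR adjusted p = 1.60e-22), CXCL8 went from 539 ± 13 to 1.85 ± 0.39 CPM (−8.19), and CCL20 was at 0 in every library. CXCL1 and CCL20 passed the filter through Sen(IR) and Sen(IR)+CTPI2, which limits what their UK5099 values show. Against Prol, 5 of the 21 were called higher with UK5099 and 8 lower, beside 26.9% and 26.2% of all genes. The higher ones were PTGS2 (1.47), CXCL3 (1.42), SOD2 (1.002), VCAM1 (0.83) and LIF (0.78). The lower ones were BIRC3 (−2.65), CCL2 (−2.52), MMP1 (−2.09), ICAM1 (−1.88), TNFAIP3 (−1.68), IL6 (−1.25), MMP3 (−1.23) and CXCL8 (−1.04). With CTPI2 5 of the 21 were called lower, beside 0.148% of all genes, with a median over the list of −0.42. Among the called genes the largest values were −1.12 for CXCL3, −1.09 for CXCL1 and −1.08 for CXCL8. CCL2, LIF, ICAM1, NFKBIZ, PTGS2 and TNFAIP3 also had an adjusted p under 0.05. Their values, between −0.47 (PTGS2) and −0.36 (ICAM1), were inside the fold limit and so not called. CSF3 had −1.47 and did not pass (edgeR adjusted p = 0.379), and MMP1 and MMP3 stood at 0.05 and 0.07.

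Over the 12 libraries, the members with patterns most like each other were IL1B and IRAK3 (Pearson r of log2 CPM 0.983), IL1A and IRAK3 (0.963) and IL1A and IL1B (0.954), while IL1R1 and IRAK1 ran in opposite directions (−0.938). Among 13441 other genes with a mean of at least 1 CPM, those most like IL1B were STC1 (0.997), CLDN1 (0.995) and TNFSF18 (0.994), and those most like IL1A were ACKR4, CXCL6 and FGF2 (0.969 to 0.976). IRAK2 was closest to TMEM45A, AKR1B1 and SOD2 (0.990 to 0.992), and IRAK3 to STC2, CACNA2D1 and ZC3H12A (0.989 to 0.992). IL1R1 was closest to GRAMD4, ARHGEF25 and DENND4A (0.988 to 0.996), and IRAK1 to PRIM2, PTTG1 and RPF2 (0.994 to 0.996). For the low genes the closest were SEC61A2, LINC01605 and CFB for IL33 (0.950 to 0.969) and PTGIR, PCSK7 and BHLHE40 for IL1RL1 (0.956 to 0.965), and for IL1RAP they were FLT1, GOSR1 and COLGALT1 (0.959 to 0.971). These 12 points form 4 groups and share their depth and scaling, so the values describe likeness over the libraries and carry no test.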

How the data were processed

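RNA of 12 MRC5 libraries was sequenced for the authors as paired ends on an Illumina instrument. According to the methods, they trimmed reads with Trimmomatic 0.36, used STAR 2.5.2b for alignment to GRCh38, and obtained unique exon hits of each gene from featureCounts (Subread 1.5.2). Strandedness is not given in the sources used here, so how reads in exons shared by overlapping genes were counted is not known. The deposited values are raw counts, without normalization, for 57500 genes. Column names gave the sample of every column, and 0 columns were of another series.

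Genes were filtered with filterByExpr (minimum count 10, 4 groups) of edgeR 4.0.16 in R 4.3.3, libraries were scaled by TMM, and glmQLFit and glmQLFTest were run once over the 12 libraries with group as the only term. The 16251 genes tested hold 99.9% of the counts. Benjamini-Hochberg adjustment covered all of them. SEs are the absolute log2 fold change over the root of the F statistic, and 95% intervals are normal intervals from it. Fitted values near 0 counts depend on edgeR's prior count, so ratios of pooled counts are given beside them with exact conditional intervals, which cover counting error only. The common biological coefficient of variation of edgeR, pooled over all genes tested and without counting error, was 6.12%. Single genes differ from it, and for IL1R1 the coefficient of variation of CPM was 23.7% in Prol and 2.68% in Sen(IR). No library was a duplicate, since the chi-square per gene between replicates was 2.28 to 13.4.

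Positions and exon lengths came from GENCODE release 44 (GRCh38), which held 56410 of the identifiers, and promoter windows from RefSeq (GRCh38.p14), where all 10 genes matched. The study called genes with DESeq2's Wald test at an unadjusted p. That test (version 1.42.0) and the unadjusted p were alternatives, as were RLE and upper-quartile scaling, no filter, a fit of the compared groups alone, a replicate block, a log2 fold limit of 1, and omitting single libraries. The edgeR and DESeq2 tests were tested on simulated data. Values are given for the 9 tested members in every comparison. For Sen(IR) against Prol and each inhibitor against Sen(IR), up to 3 called genes of each further list are named. These are the ones with the largest absolute log2 fold change. Other genes named were chosen after their values were seen. From the lists these were IL18R1, MYD88, IRAK4, TRAF6, TOLLIP, TAB1, NLRP3, MMP1, MMP3, CSF2, CSF3, CXCL2, CCL2, ICAM1, NFKBIZ and TNFAIP3. The others were the chromosome 2 neighbours, the cell type markers named singly and the induced genes called higher or lower in UK5099 against Prol. The members, lists and tests were chosen with earlier results of these data known.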

Additional observations from a re-analysis of the deposited data

How the results depend on the processing

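Of 90 recomputed counts of called members, 84 stayed within 1.5 times the reported count. Requiring an absolute log2 fold change over 1 left 4 members for Sen(IR) against Prol, 0 for CTPI2 against Sen(IR), 3 for UK5099 against Prol and 4 for CTPI2 against Prol. At the unadjusted p, CTPI2 against Sen(IR) had 2 members with edgeR and 2 with DESeq2, IL1A being added at −0.63 and −0.64. Signs changed for values near 0 or at few counts. IL1RL1 in CTPI2 against Sen(IR) became −0.0077 with DESeq2 (under either limit on p), −0.00307 with RLE scaling, −0.0035 with upper-quartile scaling and −0.00412 without a filter. IL1RAP in Sen(IR) against Prol became 0.0149 with upper-quartile scaling, which moved the median over all genes to 0.135, 0.147 and 0.124 for Sen(IR), UK5099 and CTPI2 against Prol and cost IL1RAP its call in UK5099 against Prol (−0.45). Leaving out 1 library, IL1RL1 ran from −0.316 to 0.348 in CTPI2 against Sen(IR), from −0.250 to 0.414 in Sen(IR) against Prol and from −0.0854 to 0.361 in CTPI2 against Prol, IL1A from −1.80 to 0.0220 and IL33 from −2.61 to 3.73 in UK5099 against Prol.

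No pairing of the libraries by replicate number was seen, although with 3 libraries a group this check cannot exclude it. Same-numbered pairs had correlations of their deviations from −0.122 to 0.0818, none of 18 over 0.1, and 5 of 12 libraries correlated best with their own number. With a replicate block the counts of called members were 7, 6, 1, 6, 6 and 7 in the order Sen(IR) against Prol, UK5099 and CTPI2 against Sen(IR), UK5099 against CTPI2, UK5099 against Prol and CTPI2 against Prol, equal to those without it. Of 360 recomputed counts for the further lists, an alternative chosen after seeing the data, 19 moved by over 1.5 times. With a limit of 1, no gene of the signalling or processing list stayed called in Sen(IR) against Prol (5 and 2 before) or UK5099 against Sen(IR) (1 and 2 before). With upper-quartile scaling, the processing list had 1 gene called in Sen(IR) against Prol and 4 of 7 in UK5099 against Prol. The signalling list had 2 in UK5099 against Sen(IR), also without any one Sen(IR)+UK5099 library. Depth limits IL1RN, IL33 and IL1RL1, whose groups hold few counts.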
